A study of Mus musculus with 12 samples.

Results

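The genes described here are 7 receptors of natural killer (NK) cells, Klrd1, Klrk1, Klrb1c, Klrb1b, Ncr1, Klrc1 and Klre1, and 3 adaptor genes through which such receptors signal, Fcer1g, Tyrobp and Hcst. They were picked by symbol, and all 10 were found among the 47069 genes of the expression table. Bulk RNA was sequenced from mouse B cell precursors in 12 libraries that form 4 groups of 3; all had been grown with IL7 in Iscove's medium out of hematopoietic stem cells. In the β-catenin group (libraries 244, 255 and 262) the precursors came from Mb1-Cre mice with the Catnb lox(ex3) allele and were sorted on B220. Cre removes exon 3 of Ctnnb1 from this allele, which stabilises β-catenin, and Mb1-Cre is active from the earliest B lineage stages. The sorted control group (242, 249 and 251) has the genotype control and the same sort, and the labels do not say whether these cells carry Mb1-Cre. The inhibitor group (242, 249 and 251) holds unsorted wild type precursors kept overnight with 40 nM LY2090314, a drug that blocks the kinase GSK3. The untreated group (242, 249 and 251) holds the unsorted wild type cultures kept overnight without the drug. GSK3 marks β-catenin for destruction, so both manipulations act on the same protein. The labels give neither strain nor age, and they do not say what a number marks or whether libraries of a group are separate animals, so p-values measure only the spread between these libraries.

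NK cells are innate lymphocytes that kill infected or transformed cells when activating receptors outweigh inhibitory ones. Most activating NK receptors have no signalling tail and pair in the membrane with adaptors. Fcer1g (the Fc receptor gamma chain) and Tyrobp (DAP12) carry an ITAM, the tyrosine motif to which the kinases Syk and Zap70 bind. Hcst (DAP10) carries a motif for PI3-kinase in its place, so the word ITAM does not cover it. Fcer1g and Tyrobp are also abundant in monocytes, neutrophils and mast cells, where they serve Fc and Trem receptors, whereas B cell precursors use Cd79a and Cd79b for the same task. In mouse NK cells the Klra1 gene is known to need the β-catenin partner TCF-1 (Tcf7).

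Of the 7 receptor genes, 6 lie within 900 kb of chromosome 6 (128778485 to 129678973, GRCm38, GENCODE M21), in the NK gene complex. Ncr1 lies apart on chromosome 7 (4337724 to 4345164), Fcer1g on chromosome 1 (171229572 to 171234365), and Tyrobp (30413760 to 30417585) and Hcst (30417712 to 30419854) lie end to end on chromosome 7, 126 bases apart. Promoter windows of 300 bases, from 250 before to 50 after a start annotated by RefSeq (GRCm38.p6), were at hand for 8 of the 10 genes. These starts can differ from GENCODE. The Klrb1c window lies within the GENCODE span of that gene (128778485 to 128789215). The windows of Klrb1c, Ncr1, Fcer1g and Hcst are shown because all 4 genes rose with stabilised β-catenin, while with the inhibitor, in the fit paired by number, Fcer1g rose and the other 3 fell. Capitals mark matches, on either strand, to TGTGGT (the RUNX core) or AGGAAG (an ETS core).
Klrb1c, GRCm38 chr6:128788592-128788891, minus strand: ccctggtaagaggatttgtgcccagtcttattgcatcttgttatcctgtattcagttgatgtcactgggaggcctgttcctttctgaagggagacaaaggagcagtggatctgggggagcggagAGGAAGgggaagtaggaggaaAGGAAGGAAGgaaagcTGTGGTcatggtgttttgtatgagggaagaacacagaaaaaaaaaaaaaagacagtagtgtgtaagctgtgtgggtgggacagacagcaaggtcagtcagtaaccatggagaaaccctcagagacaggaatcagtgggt
Ncr1, GRCm38 chr7:4337465-4337764, plus strand: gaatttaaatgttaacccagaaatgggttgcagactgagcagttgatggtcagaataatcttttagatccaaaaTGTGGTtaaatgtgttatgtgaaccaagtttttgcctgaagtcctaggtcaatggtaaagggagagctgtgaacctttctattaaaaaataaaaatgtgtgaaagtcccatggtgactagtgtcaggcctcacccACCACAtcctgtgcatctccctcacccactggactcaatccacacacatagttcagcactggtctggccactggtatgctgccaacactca
Fcer1g, GRCm38 chr1:171234300-171234599, minus strand: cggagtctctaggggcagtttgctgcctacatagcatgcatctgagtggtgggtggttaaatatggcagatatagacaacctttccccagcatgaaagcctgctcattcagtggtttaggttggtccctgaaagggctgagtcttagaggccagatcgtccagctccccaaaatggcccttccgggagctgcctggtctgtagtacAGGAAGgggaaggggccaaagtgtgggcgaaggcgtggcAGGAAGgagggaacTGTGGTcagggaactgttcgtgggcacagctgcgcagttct
Hcst, GRCm38 chr7:30419805-30420104, minus strand: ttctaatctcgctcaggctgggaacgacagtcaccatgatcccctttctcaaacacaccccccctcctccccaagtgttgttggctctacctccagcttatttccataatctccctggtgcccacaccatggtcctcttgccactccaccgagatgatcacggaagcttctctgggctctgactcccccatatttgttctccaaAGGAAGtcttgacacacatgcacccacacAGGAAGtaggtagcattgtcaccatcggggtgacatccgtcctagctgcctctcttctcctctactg
The RUNX core was found in 6 of the 8 genes (Klrk1, Klrb1c, Ncr1, Klrc1, Klre1 and Fcer1g), against 18.9% of 27025 genes with such windows. The ETS core was found in 5 of the 8 (Klrb1c, Klrb1b, Klre1, Fcer1g and Hcst), against 38.4% of genes, and in Klrb1c 2 of its 3 matches overlap. The TCF/LEF core CTTTGAT was found in 0 of the 8 windows, against 4.29% of genes, and its form CTTTGTT in 1 (Klrc1), against 6.68%. The T-box motif GGTGTGA was found in 0 of the 8, against 4.6% of genes. These are letter matches in short windows and say nothing of binding.

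Values are FPKM, which scale fragment counts by gene length and library total, as the authors computed them, so levels can be set against each other between genes. Depth, as counted fragments recovered from the FPKM, was 31.6 M to 49.4 M per library. Ctnnb1 RNA was 228, 331 and 282 FPKM in β-catenin libraries 244, 255 and 262, against 284, 267 and 237 FPKM in sorted control libraries 242, 249 and 251; a gene total does not show exon 3, so the deletion was not checked here. The summed level of 10 B precursor markers was 574, 1761 and 1450 FPKM in the β-catenin libraries, against 5070, 4970 and 5247 FPKM in the sorted controls. Library 244, lowest in this sum, stands apart in a further way: it holds both Xist (169 FPKM) and the Y-linked Ddx3y (19.5 FPKM), which no other library does. The unsorted libraries numbered 249 stand apart in myeloid RNA, with Lyz2 (lysozyme) at 2908 FPKM with the inhibitor and 2317 FPKM untreated, against at most 131 FPKM in each of the other libraries. Results are given by library for this reason.

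All 7 receptor genes rose with stabilised β-catenin. Klrd1 encodes CD94, the shared chain of the CD94/NKG2 receptors. It had 789, 144 and 307 FPKM in β-catenin libraries 244, 255 and 262, against 5.05, 10.5 and 5.27 FPKM in sorted control libraries 242, 249 and 251. Its lowest β-catenin library lay far above the highest control, and Klrd1 had the highest level of the 7 receptors in every library of these 2 groups. Its log2 fold change was 5.43 ± 0.627 (limma standard error, n = 3 per group, adjusted p = 0.00332), and its mean was 413 ± 336 FPKM with β-catenin and 6.94 ± 3.08 FPKM in controls (SD), a ratio of 59.6, or 32.5 without library 244. Fold changes here are differences of log2(FPKM + 1), which understates the change of low genes. Limma was run over the 12813 genes that reached 1 FPKM in 3 or more of the 6 libraries compared, and an adjusted p (Benjamini-Hochberg over all these genes) under 0.05 was a call. Of all tested genes 18.6% were called higher and 17.7% lower, and the 10 of 10 receptor and adaptor genes called higher stand beside these shares. Klrk1, Klrb1c, Ncr1, Klrc1 and Klre1 reached 1 FPKM in fewer than 3 controls and so passed the filter through the β-catenin group, and without the filter all 10 were called too (adjusted p from 0.00180 to 0.0343).

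Klrc1 encodes NKG2A, the inhibitory partner of CD94. It had 31.4, 6.34 and 14 FPKM in the β-catenin libraries and 0.522, 1.04 and 0.511 FPKM in the sorted controls (log2 fold change 3.19 ± 0.526, adjusted p = 0.00807). Klrk1 encodes NKG2D, an activating receptor for stress-induced ligands that signals through Hcst. It had 140, 18.1 and 48.9 FPKM with β-catenin and 0.533, 1.78 and 0.288 FPKM in controls (4.86 ± 0.735, adjusted p = 0.00645). Neither gene overlapped between the groups, and Klrk1 varied most within the β-catenin group, 7.76-fold between library 244 and library 255. Ncr1 encodes NKp46, an activating receptor widely used to define NK cells, which pairs with Fcer1g. It had 170, 33.7 and 66.8 FPKM with β-catenin and 1.31, 1.5 and 0.656 FPKM in controls (5.12 ± 0.568, adjusted p = 0.00305).

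Klrb1c encodes NK1.1, an activating receptor that pairs with Fcer1g, and Klrb1b an inhibitory relative that binds Clec2d. Klrb1c had 109, 20.2 and 33.9 FPKM with β-catenin and 0.668, 1.69 and 1.25 FPKM in controls (4.33 ± 0.602, adjusted p = 0.00523). Klrb1b had 244, 35.9 and 74.3 FPKM with β-catenin and 1.31, 2.80 and 1.61 FPKM in controls (4.95 ± 0.674, adjusted p = 0.00493). Klre1 encodes a lectin-like receptor that pairs with Klri1 or Klri2 products in rodents, and it was the lowest of the 7 in the β-catenin libraries. It had 21, 2.92 and 9.23 FPKM there and 0.104, 0.451 and 0.0405 FPKM in controls, where these values rest on 8, 29 and 2 fragments (3.02 ± 0.608, adjusted p = 0.0143). In each of these 3 genes every β-catenin library lay above every control. Without control library 242 or 251 the adjusted p of Klre1 was 0.0576 or 0.0659, and with voom on the recovered fragments it was 0.0661 for Klre1 and 0.0681 for Klrk1, while 8 of the 10 genes were called higher, beside 16.0% of all genes. Without any 1 β-catenin library Klre1 no longer passed the filter. The Klr genes are close relatives, and how reads were shared between copies is not given in the sources used here, so the split between Klrb1c and Klrb1b, or between Klrc1 and Klrc2, is uncertain.

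**Figure D1:**
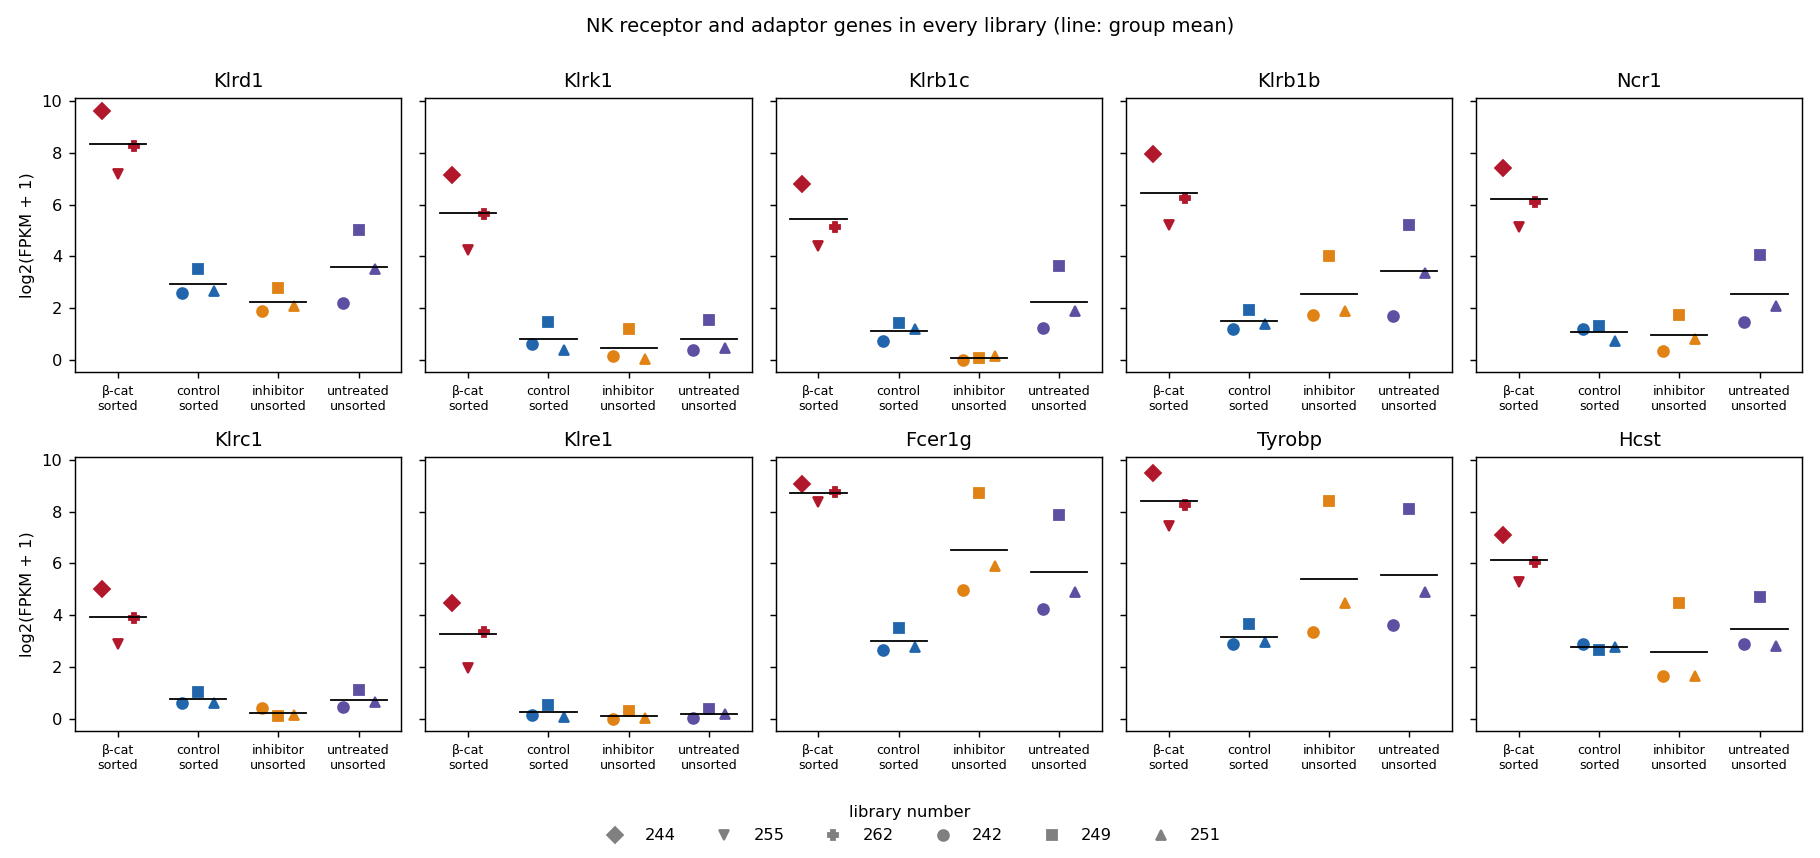
Level of each gene in every library as log2(FPKM + 1), with groups on the horizontal axis, library numbers as marker shapes and a line at the group mean (n = 3). The β-catenin libraries lie above the sorted controls in all 10 panels, with library 244 on top and 255 lowest. For Fcer1g, Tyrobp and Klrb1b at least 1 unsorted library numbered 249 reaches the β-catenin range.

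All 3 adaptor genes rose as well. Fcer1g had 538, 331 and 429 FPKM in β-catenin libraries 244, 255 and 262, against 5.31, 10.4 and 5.90 FPKM in sorted control libraries 242, 249 and 251. It varied least of the 10 genes within the β-catenin group, 1.62-fold between the highest and the lowest library, and had the smallest standard error (log2 fold change 5.75 ± 0.277, adjusted p = 0.000328). Tyrobp had 725, 171 and 307 FPKM with β-catenin and 6.47, 11.5 and 6.72 FPKM in controls (5.24 ± 0.529, adjusted p = 0.00251). Hcst had 136, 38.1 and 65.5 FPKM with β-catenin and 6.46, 5.28 and 5.87 FPKM in controls (3.37 ± 0.435, adjusted p = 0.00427). In the controls the mean of Hcst (5.87 ± 0.588 FPKM, SD, n = 3) was close to that of Tyrobp (8.23 ± 2.84 FPKM) and Fcer1g (7.21 ± 2.79 FPKM). The ratio of means was 13.6 for Hcst, the smallest of the 10, 60.1 for Fcer1g and 48.8 for Tyrobp. Without library 244 it was 8.82 for Hcst, 52.8 for Fcer1g and 29.1 for Tyrobp. The counting is not stated to use strand, so reads that run past the end of Tyrobp or Hcst could be given to the other gene.

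The groups did not overlap for any of the 10 genes, which holds in this direction for 26.5% of all tested genes. Library 244, which stands apart as described, was the highest of the β-catenin group for all 10 genes, 262 was in the middle and 255 lowest. Without library 244, and with the filter at 2 libraries, all 10 genes were still called higher, with log2 fold changes from 2.42 (Klre1) to 5.58 (Fcer1g), beside 22.7% of all genes. Against all 9 other libraries, and not only the controls, 7 of the 10 genes had every β-catenin library on top, beside 9.38% of the 12813 tested genes. The exceptions were Fcer1g, Tyrobp and Klrb1b, for which an unsorted library numbered 249 exceeded the lowest β-catenin library.

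Within the β-catenin group the levels of the receptors relative to Klrd1 varied less than the levels themselves, by 1.09-fold (Ncr1) to 1.47-fold (Klre1) between the highest and lowest library. The level of Ncr1 relative to Klrd1 was 0.216, 0.235 and 0.217 in libraries 244, 255 and 262, while Klrd1 itself differed 5.5-fold. Klrc1 relative to Klrd1 was 0.0398, 0.0442 and 0.0454, Klrk1 relative to Klrd1 was 0.178, 0.126 and 0.159, and Tyrobp relative to Klrd1 was 0.918, 1.19 and 1. Fcer1g varied by 3.39-fold in this ratio, at 0.682, 2.31 and 1.40 of the level of Klrd1 in the same libraries. These ratios describe 3 libraries and carry no test.

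Markers of other cells moved in the same comparison. The summed level of 10 NK markers was 3260, 675 and 1387 FPKM in β-catenin libraries 244, 255 and 262, against 20.8, 39.6 and 20.4 FPKM in the sorted controls. In the controls Prf1, Eomes, Tbx21 and Itga2 were below 1 FPKM in every library, and in the β-catenin group none of the 10 was. The order of the 3 β-catenin libraries was that of the receptors. Summed monocyte and macrophage markers ran from 201 to 417 FPKM with β-catenin and from 20.1 to 35.4 FPKM in controls. Summed T cell markers ran from 141 to 675 and from 5.54 to 13.6 FPKM, and summed dendritic cell markers from 108 to 320 and from 7.66 to 10.2 FPKM. Summed mast and basophil markers ran from 229 to 995 FPKM with β-catenin and from 26.6 to 66.4 FPKM in controls. In library 244, highest in these 3 sums, single genes made up much of them. Cd3g had 572 of the 675 FPKM of T cell markers and Itgax 268 of the 320 FPKM of dendritic cell markers. Kit had 599 of the 995 FPKM of mast and basophil markers. Cd4, Klk1 and Cd209a were below 1 FPKM in every β-catenin library. Summed neutrophil markers were 629, 13.9 and 31.7 FPKM in β-catenin libraries 244, 255 and 262, and from 2.29 to 10.8 FPKM in controls. Their rise thus lay mostly in library 244. By gene, 6 of 7 tested T cell markers were called higher, beside 18.6% of all genes. Of those tested, Cd3d, Cd8a, Cd8b1, Cd28 and Bcl11b were below 1 FPKM in every control and passed the filter through the β-catenin group. Of 10 B precursor markers Cd79b and Blnk were called lower and Ptprc higher. Without library 244, and with the filter at 2 libraries, 8 of the 10 were called lower and 1 higher. Of the tested monocyte and macrophage markers 4 of 7 were called higher and 1, Csf1r (3.71 ± 1.69 FPKM with β-catenin and 8.3 ± 0.323 FPKM in controls, SD, n = 3), lower, so that their sum rests on some of them. Higher calls were 2 of 4 for dendritic cell, 3 of 8 for mast and basophil and 1 of 5 for neutrophil markers, with 0 lower in each. The part of these cells in the rise of the receptors and adaptors was not tested. In bulk RNA, more cells of a type and more RNA per cell cannot be told apart.

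**Figure D2:**
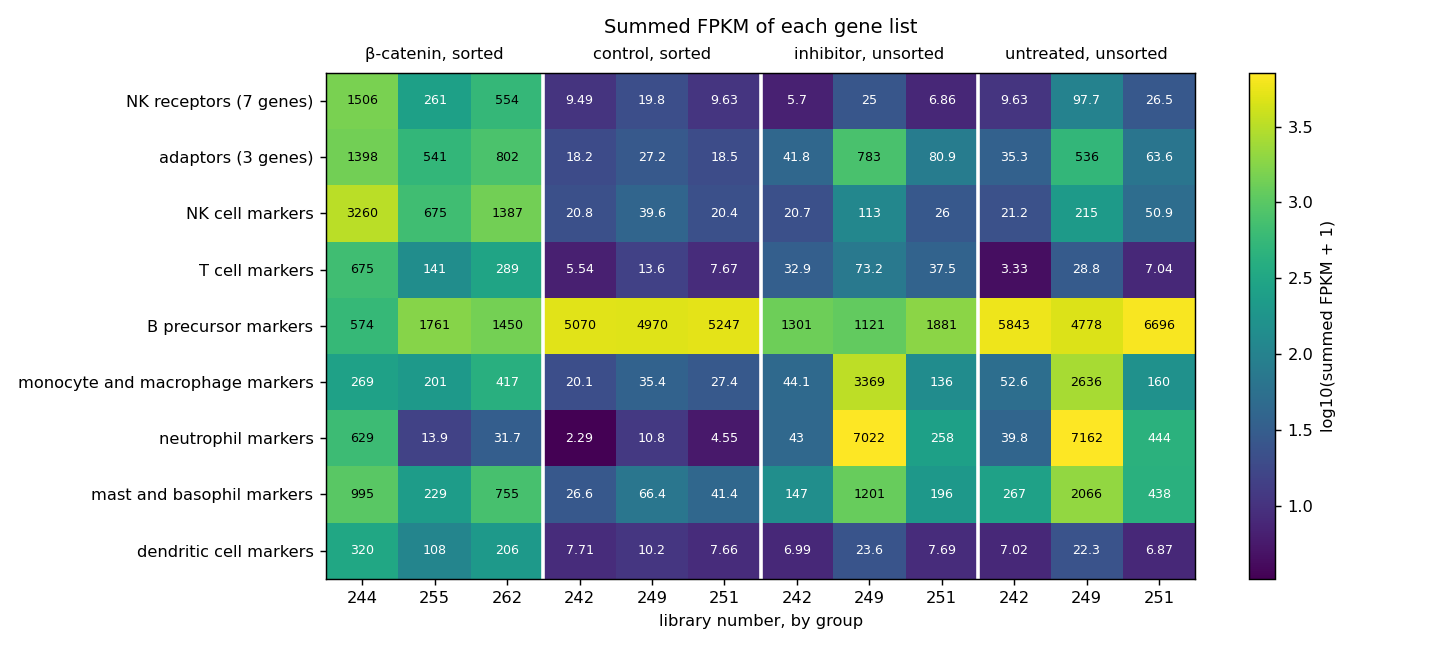
Summed FPKM of the 7 receptors, the 3 adaptors and 7 marker lists (rows) in each library (columns, by group), with the colour on a log10 scale and the sum printed in each cell. NK receptor sums reach 1506 FPKM in β-catenin library 244 and 5.70 FPKM in inhibitor library 242, and myeloid marker sums are high in both unsorted libraries numbered 249.

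With the GSK3 inhibitor 3 receptors and Hcst fell and Fcer1g rose when cultures were paired by number, while without pairing 1 receptor was called. Of the 7 receptors, 4 were high enough to be tested. Same-numbered libraries of these 2 groups deviated together from their group means (r = 0.609, 0.770 and 0.360). Different numbers gave r from -0.657 to 0.383. The highest, for inhibitor 251 and untreated 242, was above the value of number 251 itself, so the pairing is clearest for numbers 242 and 249. Klrb1c fell. It had 0, 0.0545 and 0.108 FPKM in inhibitor libraries 242, 249 and 251, resting on 0, 3 and 6 fragments, against 1.32, 11.4 and 2.74 FPKM in untreated libraries of the same numbers, resting on 81, 704 and 148 fragments. NK1.1 transcripts were thus at or near 0 in all 3 treated libraries and present in all 3 untreated ones. Of all tested genes 20.8% had every inhibitor library below every untreated one, by any margin. Against a floor of 3 fragments Klrb1c was at least 30.7-fold lower in pair 242, and it was 25.5-fold lower in pair 251. In pair 249 the ratio of untreated to inhibitor was 209, with an exact 95% interval for counting error from 71.1 to 1014.

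In the comparison of the 2 groups without pairing, 7 of the 10 genes passed the filter, and Klrb1c was the one called (log2 fold change -2.17 ± 0.591, adjusted p = 0.0494), where 9.6% of 12685 tested genes were called lower and 8.47% higher. Klrb1c passed the filter through the untreated group, where it was high, and without the filter it was not called (adjusted p = 0.120). That call was lost without any 1 of the inhibitor libraries 242, 249 or 251 (adjusted p = 0.135, 0.0803 and 0.128), and without any 1 untreated library Klrb1c no longer passed the filter. With the library number as a block, 4 of the 7 tested genes were called lower and 1 higher, beside 16.0% of all genes lower and 14.1% higher. The 4 were Klrb1c (adjusted p = 0.0103), Ncr1 (adjusted p = 0.00601), Klrd1 (adjusted p = 0.0230) and Hcst (adjusted p = 0.0259), and the gene called higher was Fcer1g (adjusted p = 0.000772). Like Klrb1c, Ncr1 passed the filter through the untreated group, where it was high, and was below 1 FPKM in inhibitor libraries 242 and 251. With the block and voom on the recovered fragments Klrb1b (adjusted p = 0.0436) was called in place of Hcst (adjusted p = 0.303), again 4 lower and 1 higher, beside 16.5% and 15.1% of all genes. Voom without the block called 0 of 7, with 1 at an unadjusted p under 0.05, where 9.58% of genes were called lower and 8.49% higher. The block without a filter, over 25993 genes, called Fcer1g alone of the 10 (adjusted p = 0.0125) and none of the receptors (adjusted p = 0.0756 for Ncr1, 0.0946 for Klrb1c and 0.148 for Klrd1), where 3.58% of genes were called higher and 3.85% lower.

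Ncr1 had 0.253, 2.35 and 0.738 FPKM in inhibitor libraries 242, 249 and 251, against 1.76, 15.5 and 3.25 FPKM in their untreated partners. It was 6.94-, 6.62- and 4.40-fold lower in the 3 pairs (log2 fold change -1.58, SE 0.279 with the block). Klrd1 had 2.70, 5.88 and 3.18 FPKM with the inhibitor and 3.62, 31.0 and 10.3 FPKM untreated, which is 1.34-, 5.28- and 3.24-fold lower (-1.33, SE 0.332 with the block). For both genes the groups overlapped although every pair went down, since number 249 was high in both groups. Klrb1b had 2.32, 15.2 and 2.69 FPKM with the inhibitor and 2.27, 36.4 and 9.15 FPKM untreated. It was lower in pairs 249 and 251 and level in pair 242, and missed the threshold with the block (-0.88 ± 0.288, adjusted p = 0.0571).

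The other 3 receptors were too low to pass the filter. Klrk1 had 0.0957, 1.26 and 0.0299 FPKM with the inhibitor and 0.285, 1.94 and 0.386 FPKM untreated. Klrc1 had 0.339, 0.0757 and 0.0998 FPKM with the inhibitor, resting on 17, 3 and 4 fragments, and 0.363, 1.17 and 0.566 FPKM untreated, resting on 16, 52 and 22, so that pair 242 was level. Klre1 was below 0.3 FPKM in all 6 libraries, at 0, 14 and 1 fragments with the inhibitor and 1, 19 and 8 untreated. An exact 2-sided permutation test, which cannot give less than 0.1 for 3 against 3, gave p = 0.5 for Klrk1, 0.1 for Klrc1 and 0.6 for Klre1. Of the 4 receptors that were tested, Klrd1, Klrb1c and Ncr1 were lower in all 3 pairs, a pattern held by 32.3% of all tested genes.

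**Figure D3:**
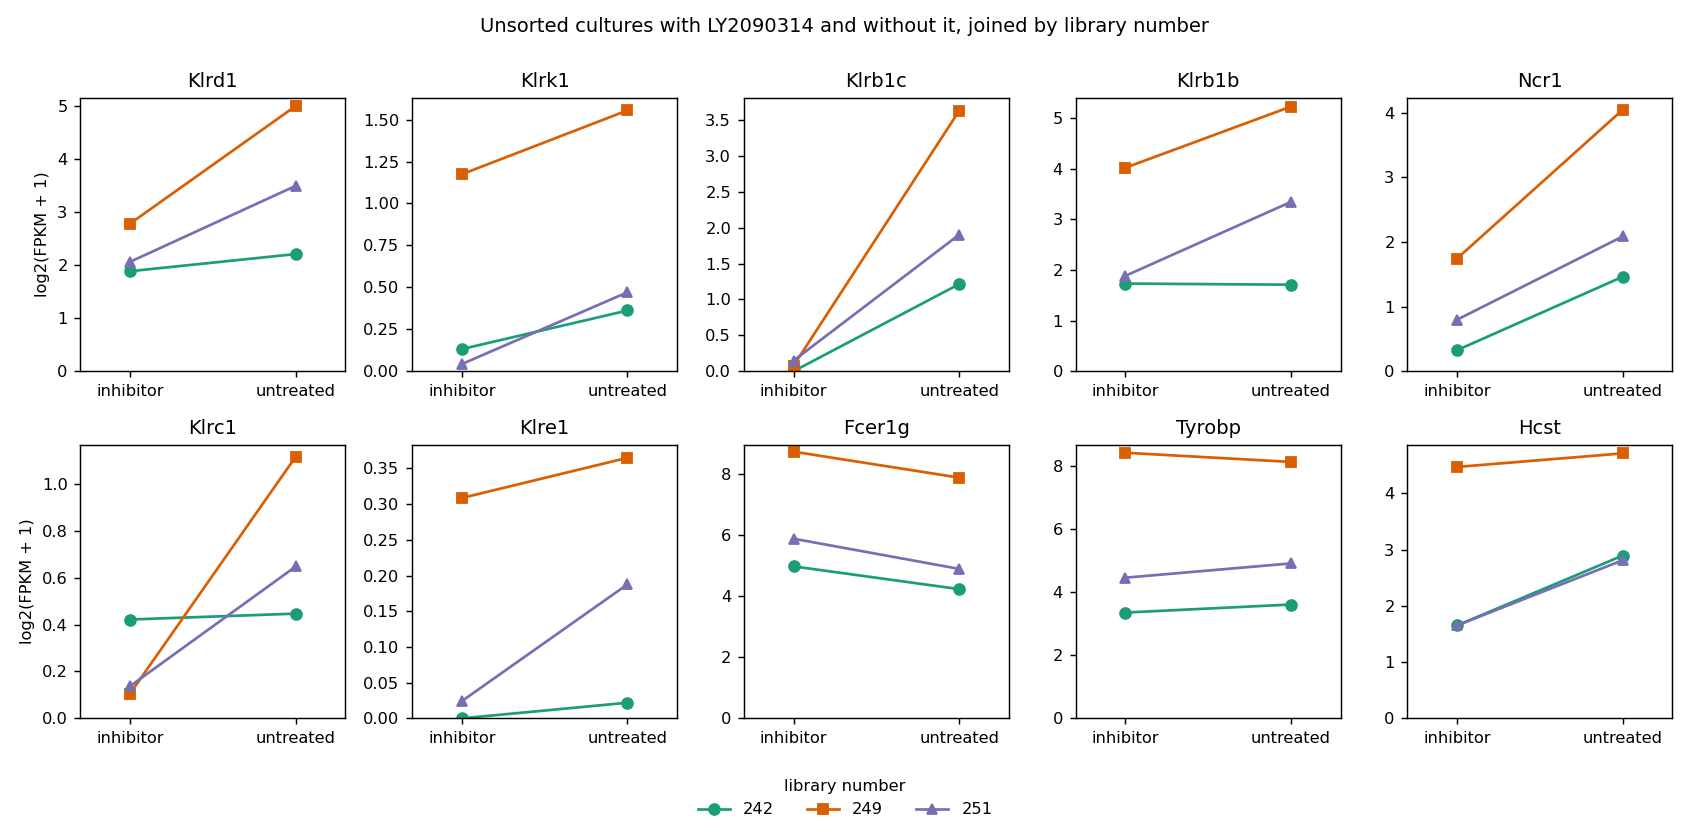
Level of each gene as log2(FPKM + 1) in the inhibitor and the untreated cultures, with lines joining libraries of the same number and a separate vertical scale for each gene. Lines run upward from inhibitor to untreated in all 3 pairs for Klrd1, Klrb1c and Ncr1, and downward in all 3 for Fcer1g.

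Among the adaptors Fcer1g rose with the inhibitor in the paired fit. It had 30.4, 424 and 57.9 FPKM in inhibitor libraries 242, 249 and 251, against 17.8, 234 and 28.7 FPKM in their untreated partners, 1.71-, 1.81- and 2.02-fold higher (log2 fold change 0.86 ± 0.095 with the block). Of all tested genes 28.4% were higher in all 3 pairs. All 3 pairs moved by nearly the same factor although the level differed 13.9-fold between treated libraries, so that the unpaired groups overlapped and gave no call (adjusted p = 0.689). Tyrobp had 9.18, 338 and 20.9 FPKM with the inhibitor and 11.1, 276 and 28.9 FPKM untreated. It was lower in 2 pairs and higher in pair 249, with a log2 fold change of -0.14 ± 0.151 (adjusted p = 0.530 with the block). Hcst had 2.14, 21.1 and 2.14 FPKM with the inhibitor and 6.43, 25.2 and 6.02 FPKM untreated, lower in all 3 pairs (-0.88 ± 0.228 with the block). Without both libraries numbered 249 Hcst was called in the unpaired fit too (-1.20, adjusted p = 0.0113), Fcer1g had a log2 fold change of 0.87 (adjusted p = 0.116), and Klrb1c and Ncr1 no longer passed the filter.

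In the level of Fcer1g relative to Ncr1 the inhibitor group stood apart from the other groups. It was 3.16, 9.84 and 6.43 in β-catenin libraries 244, 255 and 262, and 4.06, 6.96 and 8.99 in sorted control libraries 242, 249 and 251. These 2 groups overlapped. In the unsorted cultures it was 120, 181 and 78.5 in inhibitor libraries 242, 249 and 251, against 10.1, 15.1 and 8.84 in untreated libraries of these numbers. Every treated library lay above every untreated one in this ratio. Within each pair this direction follows from the rise of Fcer1g and the fall of Ncr1 given above, and is no further result. The ratio in inhibitor library 242 rests on 18 Ncr1 fragments, and it was not tested.

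**Figure D4:**
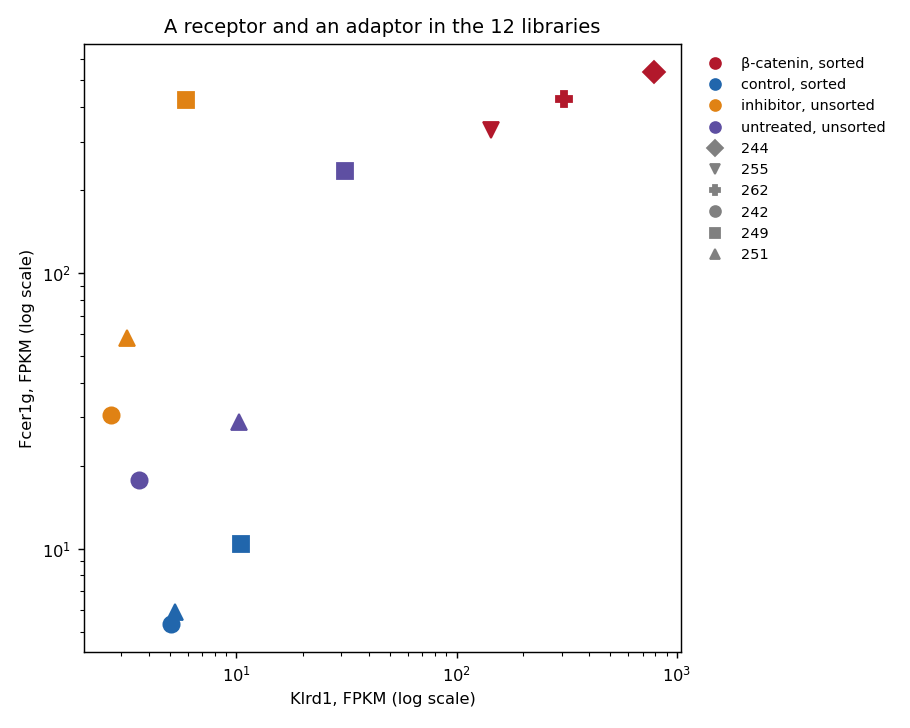
FPKM of Fcer1g (vertical) against Klrd1 (horizontal) in the 12 libraries, both axes on a log scale, colour for group and shape for number. The β-catenin libraries are high for both genes and the sorted controls low for both, while the inhibitor libraries lie higher on Fcer1g and lower on Klrd1 than their untreated partners.

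Markers in the same pairs did not all follow either set. Summed NK markers were 20.7, 113 and 26.0 FPKM in inhibitor libraries 242, 249 and 251, against 21.2, 215 and 50.9 FPKM in their untreated partners. The sum was close to level in pair 242, where Gzmb was higher with the inhibitor (15.6 against 6.39 FPKM) and Xcl1 (0.0398 against 4.65 FPKM), Il2rb (1.96 against 5.12 FPKM) and Nkg7 (0.834 against 1.76 FPKM) were lower. Summed monocyte and macrophage markers were 44.1, 3369 and 136 FPKM with the inhibitor and 52.7, 2636 and 160 FPKM untreated, and summed mast and basophil markers 147, 1201 and 196 FPKM against 267, 2066 and 438 FPKM. Summed neutrophil markers were 43.0, 7022 and 258 FPKM with the inhibitor and 39.8, 7162 and 444 FPKM untreated, and summed T cell markers 32.9, 73.2 and 37.5 FPKM against 3.33, 28.8 and 7.04 FPKM. The T cell sum rose largely through Cd8b1 (19.4, 25.7 and 25.0 against 0.191, 1.67 and 0.0362 FPKM) and Cd28 (7.49, 21.3 and 7.63 against 0.782, 4.64 and 0.521 FPKM). Cd3g was lower in pairs 249 (14.4 against 16.3 FPKM) and 251 (2.48 against 5.26 FPKM). Cd3e, Bcl11b and Themis were below 1 FPKM in every inhibitor library. Summed B precursor markers were 1301, 1121 and 1881 FPKM with the inhibitor and 5843, 4778 and 6696 FPKM untreated. Without pairing 8 of 10 were called lower and 1, Ptprc, higher, beside 9.6% and 8.47% of all genes. Those called lower included the surrogate light chain genes Vpreb1 (log2 fold change -3.88 ± 0.136, adjusted p = 7.72e-05) and Igll1 (-3.53 ± 0.131, adjusted p = 7.72e-05). The part of these cells in the changes of the receptors and adaptors was not tested.

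Sorted controls and untreated unsorted cultures differ by the B220 sort and the overnight culture, which cannot be told apart. Of the 7 genes tested here, limma called 0, beside 4.01% of 12513 genes called higher and 4.29% lower. At an unadjusted p under 0.05 there were 2, Klrb1b (log2 fold change -1.92, adjusted p = 0.164) and Fcer1g (-2.68, adjusted p = 0.0997), and voom on the recovered fragments called 0 of 7 with 0 at an unadjusted p under 0.05, beside 4.04% of genes higher and 3.47% lower. Leaving out untreated library 242 gave a call for Klrb1b (-2.78, adjusted p = 0.0429), and leaving out untreated library 249 gave one for Fcer1g (-1.58, adjusted p = 0.0295). With number as a block limma also called 0 of the 7. With the block and voom 3 were called lower, Klrb1b (adjusted p = 0.0320), Fcer1g (adjusted p = 0.0162) and Tyrobp (adjusted p = 0.0384). The share of all genes called in that fit is not given here, so this count cannot be set against it. In the unpaired limma fit all 7 log2 fold changes were negative, from -0.65 (Klrd1) to -2.68. Fcer1g and Ncr1 did not overlap between the groups, a pattern held in this direction by 17.8% of tested genes.

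The effects of stabilised β-catenin and of the inhibitor were then compared in a model of all 12 libraries, as the β-catenin effect minus the inhibitor effect. This difference is also one between sorted and overnight unsorted cells. It was positive for all 10 genes, and 8 were called, all higher, beside 6.07% of 13861 genes called higher and 3.05% lower. The differences on the log2 scale were 6.76 for Klrd1 (adjusted p = 0.00487), 6.70 for Ncr1 (adjusted p = 0.00464), 6.5 for Klrb1c (adjusted p = 0.00359) and 5.84 for Klrb1b (adjusted p = 0.0251). They were 5.20 for Klrk1 (adjusted p = 0.0106), 4.25 for Hcst (adjusted p = 0.0392), 3.70 for Klrc1 (adjusted p = 0.00794) and 3.10 for Klre1 (adjusted p = 0.0231). Klrc1 and Klre1 passed the filter through the β-catenin group and were too low to be tested for the inhibitor alone, so their differences rest on the β-catenin side and add nothing to that comparison. Klrk1 was also too low to be tested for the inhibitor alone (log2 fold change -0.347 without the filter). Its difference too rests on the β-catenin side. Fcer1g (4.89, adjusted p = 0.0599) and Tyrobp (5.37, adjusted p = 0.0996) were not called. This model ignores that same-numbered unsorted libraries deviated together. With number as a block among the unsorted libraries all 10 genes were called, Fcer1g (adjusted p = 0.000357) and Tyrobp (adjusted p = 0.00245) included, beside 8.94% of genes called higher and 4.53% lower. With voom on the recovered fragments 0 of the 10 were called, beside 2.71% of genes called higher, and 8 had an unadjusted p under 0.05.

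Leaving out 1 library changed some of these calls. Hcst lost its call (adjusted p from 0.0592 to 0.0937) without β-catenin library 244 or 262, any 1 sorted control library, inhibitor library 242 or 251, or untreated library 249 or 251. Klrb1b lost its call (adjusted p from 0.0535 to 0.0656) without β-catenin library 262, any 1 sorted control library, inhibitor library 242 or 251, or untreated library 251. Klre1 lost its call (adjusted p from 0.0523 to 0.0643) without control library 242 or 251, inhibitor library 242 or 251, or untreated library 249 or 251, and was below the filter without any 1 β-catenin library. Without inhibitor library 249, Fcer1g (adjusted p = 0.0123) and Tyrobp (adjusted p = 0.0180) were called, and Fcer1g was also called without untreated library 242 (adjusted p = 0.0464). Klrd1, Klrk1, Klrb1c, Ncr1 and Klrc1 kept their calls in each of the 12 fits that left out 1 library.

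**Figure D5:**
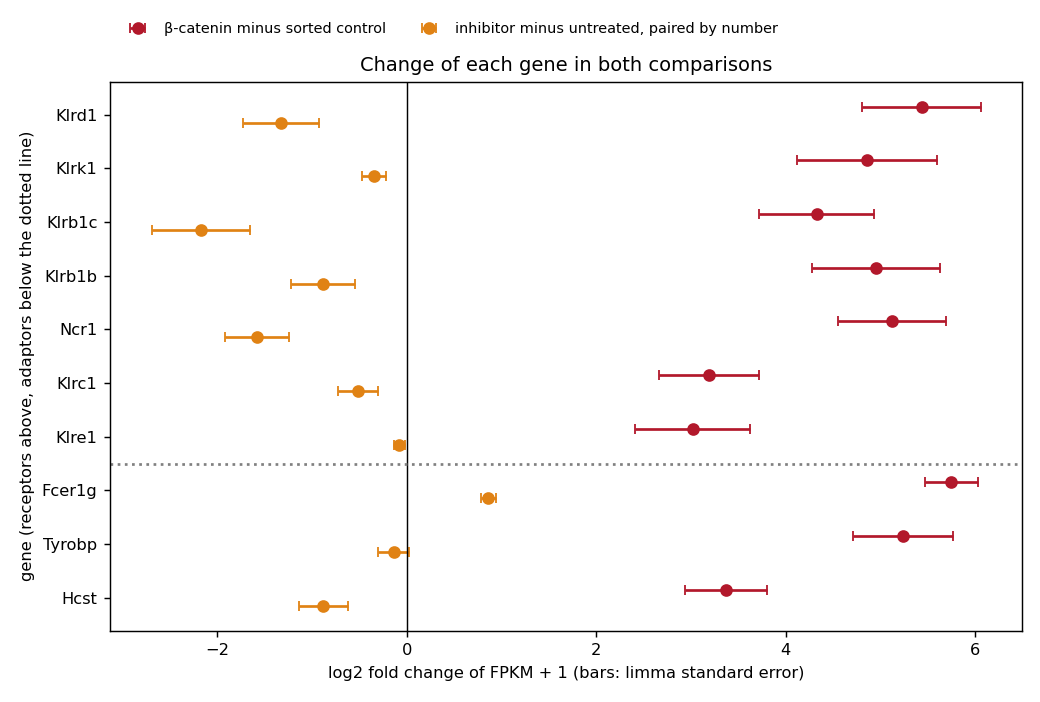
Log2 fold change of FPKM + 1 for each gene, with β-catenin against sorted control in red and inhibitor against untreated, paired by number and fitted without the filter so that all 10 genes have a value, in orange (bars are limma standard errors). All 10 red points lie between 3.02 and 5.75, and the only orange point above 0 is Fcer1g.

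Ligands of these receptors are made by the target cell. Of 8 tested ligand genes, 2 were called higher and 2 lower with β-catenin, beside 18.6% and 17.7% of all genes. The median log2 fold change was 0.04 in the list and -0.02 over all genes. Clec2i, a ligand of NKR-P1 receptors, rose in both comparisons: it had 85.4, 49.8 and 69.9 FPKM in β-catenin libraries and 9.27, 9.98 and 8.34 FPKM in sorted controls (2.74 ± 0.203, adjusted p = 0.00122). With the inhibitor it had 44.4, 36.8 and 58.6 FPKM, against 3.12, 9.02 and 4.27 FPKM untreated (2.96 ± 0.349, adjusted p = 0.00259). Clec2f, a ligand of the same family, fell in both (-2.48 ± 0.191, adjusted p = 0.00129 with β-catenin, and -1.42 ± 0.231, adjusted p = 0.00919 with the inhibitor). Raet1e, a ligand of NKG2D, fell with β-catenin (-1.50 ± 0.182, adjusted p = 0.00383). Clec2f was below 1 FPKM in every β-catenin and every inhibitor library, and Raet1e in every β-catenin library. In these comparisons they passed the filter through the sorted control or the untreated group. In the paired fit of the inhibitor comparison H2-T23, the Qa-1 molecule that CD94/NKG2A reads, fell (-1.09 ± 0.206, adjusted p = 0.00778), and so did Clec2d, the ligand of Klrb1b (-0.41 ± 0.1, adjusted p = 0.0209).

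Of 21 other NK receptor genes tested, 18 were called higher with β-catenin and 0 lower, beside 18.6% and 17.7% of all genes. The median log2 fold change of the list was 2.86. Many of the 21, among them Crtam, Klrc2, Klri1 and Tigit, were below 1 FPKM in every control and passed the filter through the β-catenin group. Such genes had almost no room to be called lower. Those called higher included Cd160 (5.05 ± 0.546, adjusted p = 0.00286), Cd226, the activating receptor DNAM-1 (4.98 ± 0.598, adjusted p = 0.00371), its relative Cd96 (4.94 ± 0.626, adjusted p = 0.00414) and Crtam (4.70 ± 0.608, adjusted p = 0.00428). With the inhibitor 3 of 10 were called higher and 1 lower, beside 8.47% and 9.6% of all genes. Klra1, the inhibitory class I receptor Ly49A, had 23, 13.9 and 21.6 FPKM in inhibitor libraries, against 0, 0.261 and 0.525 FPKM untreated (4.01 ± 0.263, adjusted p = 0.000426). With β-catenin it had 1.60, 1.72 and 1.09 FPKM, against 0.0188, 0.134 and 0.117 FPKM in sorted controls. It was therefore higher in treated cultures, where the 7 receptors were low, than in the β-catenin libraries, where they were high. Slamf6, a self-binding receptor of lymphocytes, also rose with the inhibitor (2.38 ± 0.159, adjusted p = 0.000449), as did Slamf7 (1.57 ± 0.239, adjusted p = 0.00698). Klrb1a, a neighbour and close copy of Klrb1c, fell (-1.52 ± 0.295, adjusted p = 0.0166), and in the paired fit so did Klrb1f (-2.27 ± 0.189, adjusted p = 0.000231). Klrb1a had at most 0.339 FPKM with the inhibitor and passed the filter through the untreated group. Klra1 passed it through the inhibitor group, so neither gene had room to be called in the other direction.

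Other ITAM chains went in both directions. With β-catenin, Cd3g (4.71 ± 0.811, adjusted p = 0.00913), Cd3d (2.88 ± 0.666, adjusted p = 0.0213) and Cd247 (3.85 ± 0.287, adjusted p = 0.00124), chains of the T cell receptor complex of which Cd247 also serves Ncr1, rose. Cd79b, the B cell receptor chain, fell (-3.88 ± 0.986, adjusted p = 0.0276), and it fell with the inhibitor as well (-2.15 ± 0.226, adjusted p = 0.00165). These were 3 higher and 1 lower of 5 tested with β-catenin (median log2 fold change 2.88), and 0 higher and 1 lower of 3 with the inhibitor. Over all genes the shares were 18.6% higher and 17.7% lower with β-catenin, and 8.47% and 9.6% with the inhibitor. Cd3d and Cd247 were below 1 FPKM in every sorted control and passed the filter through the β-catenin group. Of 22 myeloid partners of Fcer1g and Tyrobp, 6 were tested with β-catenin and 2 rose, Fcgr3 (3.59 ± 0.527, adjusted p = 0.00590) and Cd300lb (2.22 ± 0.457, adjusted p = 0.0152). Cd300lb too was below 1 FPKM in every sorted control. With the inhibitor 8 were tested, and in the paired fit Clec4n, an Fcer1g-coupled lectin of myeloid cells, was called lower (-1.11, adjusted p = 0.00604).

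Below the adaptors, 12 of 24 tested signalling genes were called higher and 4 lower with β-catenin (median 0.61), beside 18.6% and 17.7% of all genes. Zap70, the kinase that binds phosphorylated ITAMs in T and NK cells, had 54.3, 62.6 and 61.6 FPKM in β-catenin libraries and 0.849, 1.41 and 1.14 FPKM in sorted controls (4.83 ± 0.137, adjusted p = 4.58e-05). It also rose with the inhibitor, to 51.5, 45.4 and 57.8 FPKM, against 4.11, 6.47 and 8.15 FPKM untreated (2.89 ± 0.229, adjusted p = 0.000674). Unlike the receptors, Zap70 was nearly equal in all 6 libraries of the β-catenin and inhibitor groups. The NK adaptor Sh2d1b1 (3.34 ± 0.497, adjusted p = 0.00609) and the scaffold Lcp2 (3.26 ± 0.483, adjusted p = 0.00605) rose with β-catenin. Sh2d1b1 was below 1 FPKM in every sorted control and passed the filter through the β-catenin group. With the inhibitor 5 of 23 were called higher and 6 lower, beside 8.47% and 9.6% of all genes. Among them were the exchange factors Vav3 (1.16 ± 0.205, adjusted p = 0.0121) and Vav2 (-2.42 ± 0.274, adjusted p = 0.00221) and the phospholipase Plcg1 (-1.84 ± 0.132, adjusted p = 0.000505).

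Of 10 transcription factors of NK and innate lymphoid cells, 9 were called higher and 1 lower with β-catenin (median 4.23), beside 18.6% and 17.7% of all genes. Rora, Gata3, Tbx21, Eomes, Tox and Zfp683 were below 1 FPKM in every sorted control and passed the filter through the β-catenin group. Tcf7 (TCF-1) rose most (6.58 ± 0.129, adjusted p = 3.73e-05), followed by Rora (4.61 ± 0.587, adjusted p = 0.00419), Gata3 (4.48 ± 0.335, adjusted p = 0.00124) and Id2 (4.32 ± 0.588, adjusted p = 0.00493). Tcf7 also rose with the inhibitor (3.84 ± 0.538, adjusted p = 0.00510), while Zeb2 fell (-1.92 ± 0.386, adjusted p = 0.0189). Among 10 NK markers 9 were called higher with β-catenin (median 4.73), led by the granule proteases Gzma (7.03 ± 0.341, adjusted p = 0.000328) and Gzmb (5.25 ± 0.694, adjusted p = 0.00454), the IL15 receptor chain Il2rb (5.71 ± 0.619, adjusted p = 0.00286) and the chemokine Xcl1 (5.54 ± 0.688, adjusted p = 0.00399). Of the 10, Prf1, Eomes, Tbx21 and Itga2 passed the filter through the β-catenin group. With the inhibitor Xcl1 fell (-3.01 ± 0.807, adjusted p = 0.0475), and in the paired fit 4 of 6 NK markers were called lower, beside 16.0% of all genes, with Il2rb (-1.38 ± 0.190, adjusted p = 0.00204), Nkg7 (-0.96 ± 0.277, adjusted p = 0.0376) and Tbx21 (-0.95 ± 0.229, adjusted p = 0.0201). In the inhibitor comparison Xcl1 passed the filter through the untreated group.

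Genes whose pattern was most like that of the 7 receptors were ranked by Pearson's r with the mean of the receptors' standardised levels over the 12 libraries, among 11449 protein-coding genes. The 5 highest were Klri1 (r = 0.995), Klri2 (r = 0.995), Crtam (r = 0.992), Ctsw (r = 0.991) and Cd200r2 (r = 0.990). For the 3 adaptors they were Ccl3 (r = 0.991), Trafd1 (r = 0.990), Arap3 (r = 0.989), Apobr (r = 0.988) and Fosl2 (r = 0.987), so the top genes of both rankings did not overlap. Mean levels of Ccl3 were 45.6 FPKM with β-catenin, 1.80 in sorted controls, 14.4 with the inhibitor and 9.88 untreated. These correlations describe libraries that share groups and culture numbers, and no test was made of them.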

How the data were processed

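Bulk RNA-seq of 12 libraries in 4 groups of 3 was analysed from 1 table of FPKM per Ensembl gene that the authors computed and deposited. Per the submitters' processing notes the tools were HISAT2, HTSeq and Cufflinks and the build GRCm38 (mm10). The sources used here do not give versions, settings, strandedness or gene lengths. FPKM removes library totals, so depth enters through the spread of low genes. Counted fragments were recovered from the steps of the FPKM: 25185 genes came out whole, 1 failed, 18793 were at 0 throughout and 3090 were above 0 in 1 library. Of the values above 0 in genes above 0 in at least 2 libraries, 99.99% were rebuilt within a relative tolerance of 1e-08. No column of values was left out.

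Groups were compared with limma 3.58.1 (R 4.3.3, eBayes with trend) on log2(FPKM + 1), 2-sided, over genes that reached 1 FPKM in 3 or more libraries of the fit, with Benjamini-Hochberg adjustment over all tested genes and a threshold of 0.05. Each comparison was fitted on its 6 libraries, and the difference of effects on all 12. Python 3.11.15, pandas 2.3.3, scipy 1.17.1 and matplotlib 3.10.9 were used, and scripts were tested on simulated data. No pair of replicates agreed within counting noise. Same-numbered inhibitor and untreated libraries deviated together (r = 0.609, 0.770 and 0.360, each above 0.1), so their block results are given beside the unpaired ones. Also above 0.1 were inhibitor 242 with untreated 251 (0.253) and inhibitor 251 with untreated 242 (0.383).

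The members and lists were chosen with earlier results of these data known. Named were all members, up to 4 called genes of each list with the largest changes (fewer where a gene is not reported here), and the 5 genes most like each class. Klra1 in the β-catenin group, Lyz2, Xist, Ddx3y, Ctnnb1 and markers named for being low were named outside this rule, after their values were seen. Symbols were used as in the file. Klrh1, Raet1a, Raet1b, Raet1c and H60a had no row under these symbols. As alternatives the pseudocount was lowered to 0.1, the filter was dropped or raised to 5 FPKM, values were quantile normalized or median centred, voom was run on the fragments, comparisons were fitted within all 12 libraries, library numbers were blocked, and libraries were left out. Added after seeing the data were the block with voom, the block without filter, a block among the unsorted libraries in the difference of effects, and leaving out library 244 with the filter at 2 libraries.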

Additional observations from a re-analysis of the deposited data

Results flagged for a closer look

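For 8 of the 10 genes the effect of stabilised β-catenin differed from that of the inhibitor by a test of the difference itself (limma, adjusted p under 0.05), which is why they are listed. The β-catenin effect minus the inhibitor effect, on the log2 scale, was 6.76 for Klrd1, 6.70 for Ncr1, 6.5 for Klrb1c, 5.84 for Klrb1b, 5.20 for Klrk1, 4.25 for Hcst, 3.70 for Klrc1 and 3.10 for Klre1. The β-catenin effect was positive in all 8. Klrk1, Klrc1 and Klre1 were too low to be tested for the inhibitor alone, so their differences rest on the β-catenin side. With number as a block among the unsorted libraries all 10 genes were called. With voom on the recovered fragments none of the 8 passed (adjusted p from 0.0542 to 0.235), although all 8 differences were positive. The difference is also one between sorted and overnight unsorted cells, and the 2 cannot be told apart.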

How the results depend on the processing

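Over the alternatives run, all 136 recomputed values of the 10 genes for β-catenin against sorted control kept a positive direction, 4 without a call (Klrk1 and Klre1 with voom, and Klre1 without control 242 or 251). Members called there ran from 9 to 10 when 1 library was left out, and genes called from 1535 (without control 251) to 5002. Median centring gave 1932 genes higher and 3291 lower and quantile normalization 1993 and 2891, against 2387 and 2269 as deposited, and moved the median over all genes to -0.14 and -0.11 from -0.02.

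For inhibitor against untreated, members called numbered 0 with no filter, 0 with a filter of 5 FPKM, 0 with voom, 5 with the replicate block and 5 with the block and voom, against 1. Genes called were 3816 with the block and 4012 with the block and voom, against 2292, and from 1023 to 2200 when 1 library was left out, where members called were 0 throughout. With the block but no filter, 1 member (Fcer1g) was called. Signs turned for Klrb1b (0.017 without untreated 249), Fcer1g (-0.239 without inhibitor 249) and Tyrobp (0.088 with block and voom, 0.888 without inhibitor 242, 0.337 without inhibitor 251 and 1.149 without untreated 249). Their lowest and highest log2 fold changes without 1 library were -1.741 and 0.017 for Klrb1b, -0.239 and 1.968 for Fcer1g, and -1.64 and 1.149 for Tyrobp. The cause was not tested.

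For sorted control against untreated, same-numbered libraries deviated together only weakly (r = 0.143, 0.123 and 0.001). Different numbers gave r from -0.171 to 0.031. Xist and Ddx3y did go with the number: Xist was 295 FPKM in sorted control 242 and 205 FPKM in untreated 242, with Ddx3y at 0. In libraries 249 and 251 of both groups Xist was below 1 FPKM and Ddx3y was present. Block results are therefore given beside the unpaired ones. Members called were 1 without both libraries 249 and 3 with the block and voom, against 0, and 0 to 1 when 1 library was left out. For the block with voom the share of all genes called is not given. Genes called were 352 with no filter, 522 with all 12 libraries, 354 with the block, 291 without both 249 and 0 with the block but no filter, against 1039, and 23 (without control 251) to 1085 when 1 library was left out. Klrd1 turned to 0.07 without untreated 249, in a range from -1.326 to 0.07 without 1 library. For the difference of effects, members called were 0 with voom, against 8, 10 with a replicate block in the unsorted libraries (1867 genes), and 5 to 10 when 1 library was left out. Genes called were 808 with no filter and 608 with voom, against 1264, and 479 (without control 251) to 1997 (without inhibitor 249). The split of 841 higher and 423 lower became 583 and 541 with median centring and 659 and 532 with quantile normalization. Klrb1c with the inhibitor, Klrk1, Klrc1 and Klre1 rest on few fragments in some groups, which limits what can be said of their size of change.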
